A study of Mus musculus with 6 samples.

Results

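Replication-dependent histone genes encode the H1, H2A, H2B, H3 and H4 proteins that package newly made DNA. They were taken here as the protein-coding genes whose GENCODE M21 symbol begins with Hist1h, Hist2h, Hist3h or Hist4h, which gave 67 genes among the 54752 rows of the count table. There were 6 H1, 18 H2A, 18 H2B, 12 H3 and 13 H4 genes. Of these, 54 lie in the Hist1 cluster on chromosome 13, 10 in the Hist2 cluster on chromosome 3 and 2 in Hist3 on chromosome 11, and 1, Hist4h4, stands on chromosome 6.

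The levels were measured by RNA-seq in mouse embryonic fibroblasts, cells grown out of dissected mouse embryos, of a line labelled as p53-deleted. The shARF group had 3 libraries of cells infected with a lentivirus carrying a hairpin RNA against p19ARF, and the labels give their genotype as ARF knockdown. The shNT group had 3 libraries of cells infected with a negative control hairpin, and the labels give their genotype as WT although the same p53-deleted line is named. All titles carry the tag neo, and the labels name no mouse strain, embryo age or clone. p19ARF, the product of the alternative reading frame of Cdkn2a, is best known for stabilising p53 by binding Mdm2. The comparison sets reduced ARF against a control hairpin on a background without p53.

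In mammalian cells most of these genes are transcribed during S phase, when histone supply has to match DNA synthesis. Their messages usually carry no poly(A) tail and end just after a short stem-loop, which the stem-loop binding protein Slbp recognises and which the U7 small nuclear ribonucleoprotein helps to process. Libraries made from total RNA depleted of ribosomal RNA, as here, keep such messages. H2A, H2B, H3 and H4 form the nucleosome core and H1 binds the linker DNA between cores. A bulk sample cannot tell fewer cells in S phase from less histone RNA per cell, and this holds for every level given here.

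The stem-loop is the sequence that defines the messages of this family, and its forms show which histone types keep a version of their own. The search fixed all 16 bases of the histone stem-loop except bases 4, 10 and 13, which were left free. Such a stem-loop was found in the annotated transcript of 42 of the 67 genes, in 5 forms. They are written 5′ to 3′ on the strand of the gene, with GRCm38 coordinates of an example. Capitals mark bases 4, 10 and 13, the only ones at which the search let the forms differ.
Form of 26 genes of the H1, H2A, H2B and H3 types, as in Hist1h1c at chr13:23739512-23739527, plus strand: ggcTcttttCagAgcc
Form of 7 H4 genes, as in Hist1h4c at chr13:23698089-23698104, minus strand: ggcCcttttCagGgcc
Form of 6 genes of the H1, H2B and H3 types, as in Hist1h1t at chr13:23696525-23696540, plus strand: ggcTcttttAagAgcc
Form of 2 H4 genes, as in Hist1h4i at chr13:22040966-22040981, minus strand: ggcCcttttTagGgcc
Form of 1 H2A gene, Hist2h2ac, at chr3:96220418-96220433, minus strand: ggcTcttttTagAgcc
The H4 genes with a stem-loop used 2 forms that no gene of another type carried. The other 25 genes held no such stem-loop in the annotated transcript, and several of those transcripts are annotated no further than the coding region. A stem-loop that differs at another base was not searched for.

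Total counts were 46.3, 45.2 and 46.1 M in shARF replicates 1, 2 and 3 and 44.5, 47.0 and 40.3 M in shNT replicates 1, 2 and 3. Levels are given as CPM (counts scaled to a common library total) after scaling of the libraries by trimmed mean of M values (TMM). A gene is called higher or lower in shARF where the adjusted p of edgeR's quasi-likelihood test over all 17128 tested genes is under 0.05. The labels speak of biological replicates without naming separate cultures or infections, so the p-values measure the spread between these libraries, which may be technical. Cdkn2a, the gene the hairpin targets, was at 95.6, 103 and 107 CPM in shARF libraries and at 231, 218 and 223 CPM in shNT libraries, without overlap. These counts are of the whole gene and do not separate the p19ARF message from other messages of Cdkn2a. The log2 fold change of Cdkn2a was -1.14 (SE 0.05, edgeR adjusted p = 2.52e-06). The exact permutation p, two-sided, was 0.1, which 3 against 3 libraries cannot go below. The 10 fibroblast markers summed to between 24258 and 24529 CPM in shARF libraries and between 20994 and 22621 CPM in shNT libraries, with 5 called higher and 2 lower. The 2 lower were Pdgfra, a growth factor receptor, at 88.8 to 93 CPM in shARF libraries and 497 to 508 CPM in shNT libraries (log2 fold change -2.46, edgeR adjusted p = 8.76e-08), and Dcn, the matrix proteoglycan decorin, at 43.1 to 49.5 CPM in shARF libraries and 193 to 203 CPM in shNT libraries (log2 fold change -2.12, edgeR adjusted p = 5.48e-07).

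Within each group the libraries differed in their level of histone RNA, and 1 stood apart. Among 64 of the 67 genes (without Hist2h2aa1, Hist2h3c1 and Hist1h2aa), shNT replicate 3 was the highest of the shNT libraries for 61 and lay a median of 0.11 above the shNT mean on the log2 scale. shNT replicate 1 was the lowest of its group for 57 of the 64, with a median deviation of -0.086. The shARF libraries lay closer together: replicate 1 was the highest for 52 genes with a median deviation of 0.042, and replicate 3 the lowest for 41 with a median deviation of -0.027. The histone genes were thus high or low together from library to library, by amounts similar to many of the differences between groups. For the histone genes described singly below, values without a single library are given where they change a call. Some other RNAs without a poly(A) tail were also highest in shNT replicate 3 of the shNT libraries. In shNT replicates 1, 2 and 3 Rpph1 was at 269, 269 and 337 CPM and Rmrp at 368, 356 and 430 CPM. Rn7sk was at 1695, 1729 and 1960 CPM in the same order. Rny1, at 0.804, 0.76 and 0.753 CPM, was not highest there. Messages outside that class also differed in this. The collagen gene Col1a1, at 6851, 7042 and 7476 CPM in shNT replicates 1, 2 and 3, was highest in replicate 3 as well. Npm1, at 619, 602 and 617 CPM, was not. The source of this shared shift was not tested.

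**Figure D1:**
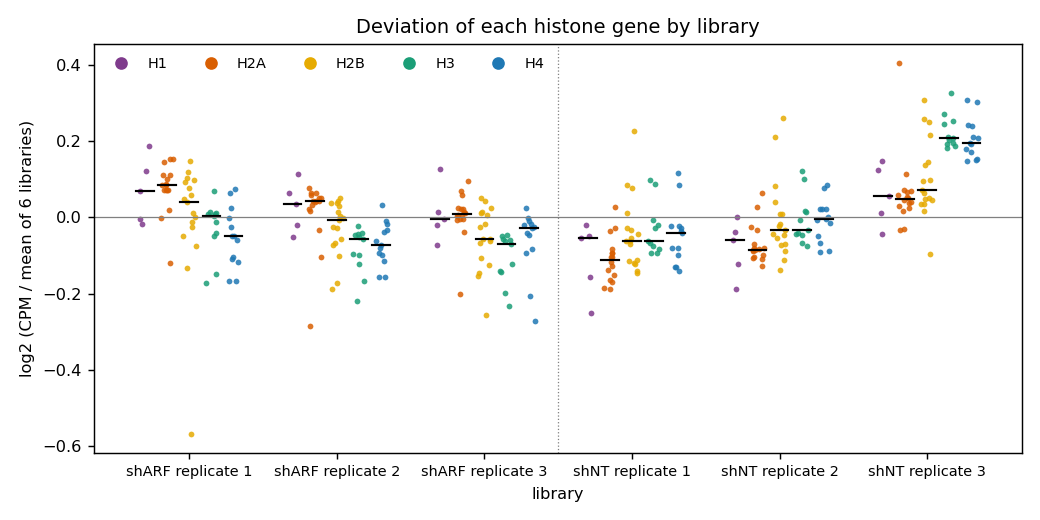
Deviation of 62 histone genes in each library, as log2 of the CPM over the mean of 6 libraries, coloured by type; bars are the median of a type in a library. In shNT replicate 3 the H3 and H4 genes lie highest. Hist1h1t, Hist2h2be, Hist2h2aa1, Hist2h3c1 and Hist1h2aa are left out.

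The summed histone RNA overlapped between shARF and shNT. The 67 genes summed to 9686, 9552 and 9367 CPM in shARF libraries, against 9105, 9509 and 10569 CPM in shNT libraries. The shARF sums lay inside the range of the shNT sums, with means of 9535 ± 160 CPM in shARF and 9728 ± 756 CPM in shNT (SD, n = 3 each) and a log2 ratio of -0.03. As a share of all counts, which involves no TMM scaling, the sums were 0.937, 0.926 and 0.908% in shARF libraries and 0.942, 0.985 and 1.08% in shNT libraries, and on that scale all shARF libraries lay below.

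By histone type the signs differed. The H1 genes summed to 1380, 1337 and 1321 CPM in shARF libraries and 1201, 1224 and 1356 CPM in shNT libraries, a log2 ratio of 0.09 that was 0.01 with library sizes alone. The H2A genes summed to 2017, 2061 and 1914 CPM in shARF libraries and 1929, 1824 and 1860 CPM in shNT libraries, a log2 ratio of 0.09 that was 0.00 with library sizes alone. For both types the groups overlapped by 1 library of the shNT group. The H2B genes summed to 2218, 2174 and 2151 CPM in shARF libraries and 2133, 2189 and 2400 CPM in shNT libraries (log2 ratio -0.04, and -0.13 with library sizes alone). The H3 genes summed to 2228, 2149 and 2118 CPM in shARF libraries and 1975, 2336 and 2716 CPM in shNT libraries (log2 ratio -0.11, and -0.20 with library sizes alone). H4 was the type whose groups did not overlap, at 1843, 1831 and 1864 CPM in shARF libraries and 1867, 1935 and 2235 CPM in shNT libraries (log2 ratio -0.12, and -0.21 with library sizes alone). Without shNT replicate 3 the log2 ratios were 0.15 for H1, 0.09 for H2A, 0.01 for H2B, 0.01 for H3 and -0.04 for H4. The H3 value includes Hist2h3c1, which was at 8.77 CPM in shNT replicate 1, and with that gene left out as well the log2 ratio of H3 was -0.07. The H2A value includes Hist2h2aa1, which was at 267 and 124 CPM in shNT replicates 1 and 2. With Hist2h2aa1 left out, H2A summed to 1898, 1822 and 1801 CPM in shARF libraries and 1661 and 1700 CPM in shNT replicates 1 and 2.

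**Figure D2:**
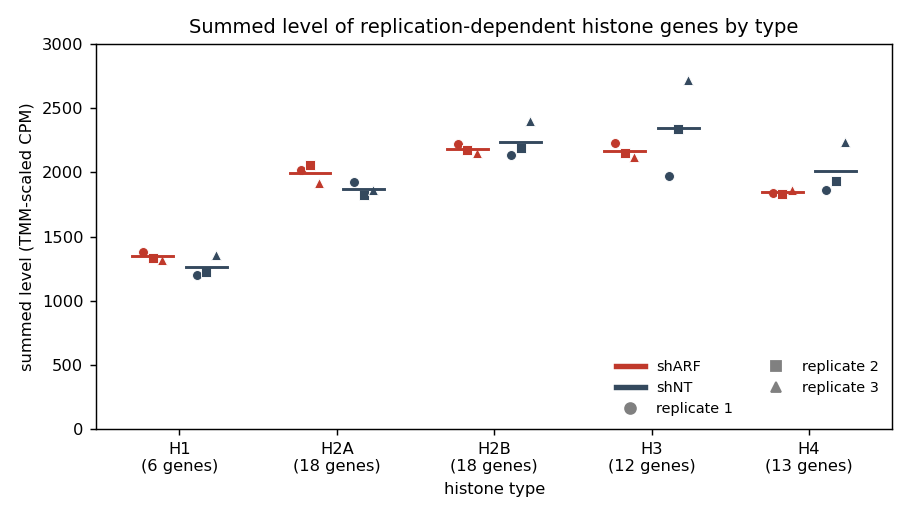
Summed level of each histone type in TMM-scaled CPM, 1 point per library with shARF left of shNT, and the group mean as a bar. The H4 points of shARF libraries, 1831 to 1864 CPM, lie below the shNT points, 1867 to 2235 CPM; the other types overlap between groups.

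Gene by gene, 66 of the 67 passed the filter on low counts and were tested. Of these 6 were called higher in shARF (9.09%) and 9 lower (13.6%), while over all 17128 tested genes 28.8% were called higher and 27.7% lower. Their folds were small: the median absolute log2 fold change was 0.10, against 0.34 over all tested genes and 0.23 over the 4773 genes that averaged 50 CPM or more. The median log2 fold change was -0.02, against -0.01 over all genes. A fold of under 1.2 was seen for 55 of the 66, a fold of at least 1.2 for 11, and a fold of at least 2 for 1, Hist1h1t. The groups did not overlap for 8 genes with shARF above and 13 with shARF below, against 32.6% and 32.0% of all genes.

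The split between the directions depended on scaling and on which library was left out. With library sizes alone in place of TMM, 3 histone genes were called higher and 22 lower, against 23.5% and 34.3% of all genes, and the median log2 fold change of all genes moved to -0.098. Without shNT replicate 3, 22 histone genes were called higher, against 27.0% of all genes. Without shNT replicate 1, 15 were called lower, against 25.1% of all genes, and without shARF replicate 2 the count of lower calls was 4, against 24.5% of all genes. DESeq2 called 8 higher and 12 lower, against 21.3% and 19.8% of the genes it tested. With a fold of at least 1.2 required beside the adjusted p, 3 histone genes were called higher and 7 lower, against 22.6% and 22.3% of all genes. Of the 15 genes called, 6 were called in every alternative that gave them a value: Hist1h1c, Hist1h1t, Hist2h2bb, Hist2h2be, Hist2h3b and Hist2h3c2.

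**Figure D3:**
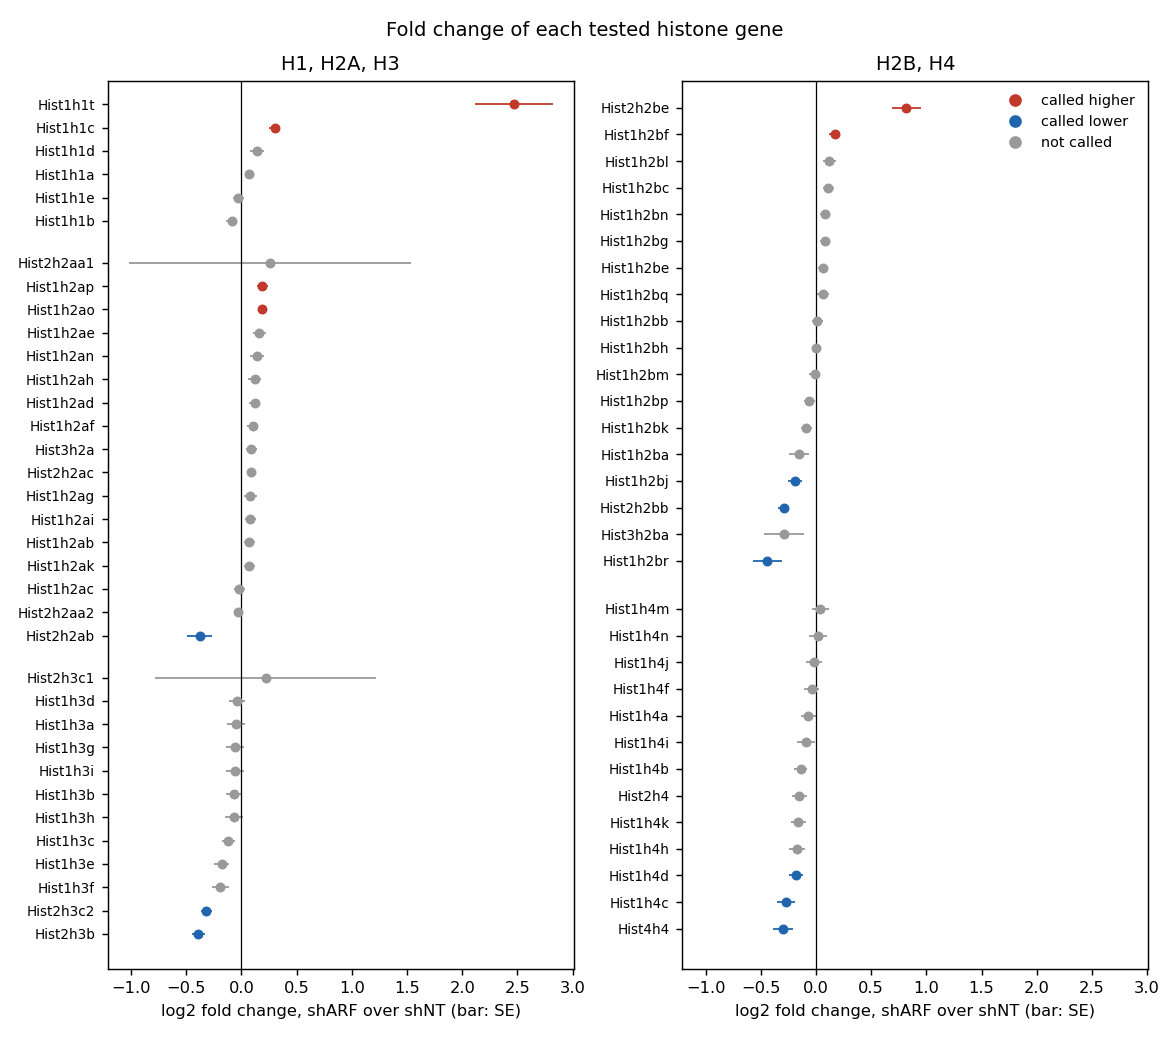
Log2 fold change of each of the 66 tested histone genes, shARF over shNT, with the standard error derived from the test as a bar. Colours mark genes called higher, called lower or not called. Hist1h1t at 2.47 and Hist2h2be at 0.82 stand to the right, and Hist2h2aa1 and Hist2h3c1 have standard errors of 1.28 and 1.00.

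H1 binds the DNA between nucleosomes and helps to fold chromatin. Of its 6 genes, Hist1h1c and Hist1h1t rose and the other 4 did not pass the test. The sign was positive for 4 of the 6 with TMM and for 3 with library sizes alone. Hist1h1c, which encodes the somatic linker histone H1.2, was at 359, 342 and 344 CPM in shARF libraries and at 265, 277 and 306 CPM in shNT libraries. All shARF libraries lay above all shNT libraries, with means of 348 ± 9.34 CPM in shARF and 283 ± 21.2 CPM in shNT (SD, n = 3 each). The log2 fold change was 0.30 (SE 0.05, edgeR adjusted p = 0.00281).

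Hist1h1t, the linker histone of the testis, was a rare message in these cells, at 0.536, 0.89 and 1.05 CPM in shARF libraries and at 0.13, 0.164 and 0.146 CPM in shNT libraries. These levels stand for 24, 39 and 47 reads in shARF libraries against 6, 8 and 6 reads in shNT libraries. The groups did not overlap, and none of the 50-base words of its transcript recurred in another histone gene of the set. The log2 fold change of 2.47 (SE 0.35, edgeR adjusted p = 0.000901) was the highest of the 66 genes, on the lowest counts of any gene called.

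The other H1 genes are somatic linker histones. Hist1h1d was at 351, 337 and 326 CPM in shARF libraries and at 289, 296 and 335 CPM in shNT libraries, with groups that overlapped through shNT replicate 3 (log2 fold change 0.14, SE 0.06, edgeR adjusted p = 0.0867). Without that library it was called higher (log2 fold change 0.20, edgeR adjusted p = 0.00602). Hist1h1e was at 270, 266 and 266 CPM in shARF libraries and at 261, 263 and 295 CPM in shNT libraries (log2 fold change -0.03, edgeR adjusted p = 0.62). Hist1h1a and Hist1h1b also overlapped between groups, with log2 fold changes of 0.07 and -0.09.

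H2A pairs with H2B in the nucleosome. Of 17 H2A genes tested, 14 had a positive log2 fold change with TMM and 9 with library sizes alone, with medians of 0.09 and 0.00. With TMM 2 were called higher and 1 lower. Hist1h2ao was at 126, 119 and 118 CPM in shARF libraries and at 101, 105 and 111 CPM in shNT libraries, without overlap (log2 fold change 0.19, SE 0.04, edgeR adjusted p = 0.00828). Hist1h2ap was at 95.4, 89.8 and 90.6 CPM in shARF libraries and at 76, 81.4 and 84.5 CPM in shNT libraries, also without overlap (log2 fold change 0.19, SE 0.05, edgeR adjusted p = 0.0135). The 2 are near copies, with 93.1% of the 50-base words of Hist1h2ap also in Hist1h2ao, so their separate values are uncertain. Summed to 1 feature they had a log2 fold change of 0.19 (edgeR adjusted p = 0.00769). With library sizes alone both calls were lost, at edgeR adjusted p of 0.0671 for Hist1h2ao and 0.103 for Hist1h2ap.

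Hist2h2ab, an H2A gene of the Hist2 cluster, fell. It was at 15.6, 13.9 and 14.7 CPM in shARF libraries and at 17.2, 17.7 and 22.4 CPM in shNT libraries. The groups did not overlap and shNT replicate 3 was the high library (log2 fold change -0.38, SE 0.11, edgeR adjusted p = 0.0244). The call was lost without shARF replicate 2 or without shARF replicate 3, where the adjusted p reached 0.0773. Hist2h2ac, its neighbour on the other strand, was at 111, 108 and 108 CPM in shARF libraries and at 99.1, 101 and 107 CPM in shNT libraries. Its groups did not overlap, yet the log2 fold change of 0.09 missed the threshold (edgeR adjusted p = 0.0894). Without shNT replicate 3 it was called higher (log2 fold change 0.12, edgeR adjusted p = 0.0208).

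The H2A genes with the highest CPM did not pass the test. Hist2h2aa2 was at 250, 241 and 240 CPM in shARF libraries and at 241, 241 and 267 CPM in shNT libraries. Hist1h2ab was at 208, 199 and 196 CPM in shARF libraries and at 184, 185 and 206 CPM in shNT libraries. Hist1h2ad was at 172, 165 and 161 CPM in shARF libraries and at 146, 149 and 164 CPM in shNT libraries. In the last 2 the shARF libraries lay above shNT replicates 1 and 2 and level with shNT replicate 3, with log2 fold changes of 0.07 and 0.12. Without shNT replicate 3 both were called higher, with log2 fold changes of 0.12 for Hist1h2ab and 0.16 for Hist1h2ad (edgeR adjusted p of 0.0304 and 0.013). Hist3h2a, on chromosome 11, was at 43.1, 44.4 and 46.1 CPM in shARF libraries and at 40.8, 40.1 and 44.6 CPM in shNT libraries (log2 fold change 0.09, edgeR adjusted p = 0.197). Hist1h2aa, an H2A gene of the testis, was not tested, with 3 to 7 counts in each library.

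H2B genes were divided evenly by sign with TMM, 9 of 18 positive and 9 negative, and 4 were positive with library sizes alone. With TMM 2 were called higher and 3 lower. Hist2h2be, known in mouse as an H2B variant of olfactory sensory neurons, was at 4.08, 3.19 and 4.07 CPM in shARF libraries and at 1.98, 2.24 and 2.21 CPM in shNT libraries. Its reads numbered 183, 140 and 182 in shARF libraries and 91, 109 and 91 in shNT libraries. All shARF libraries lay above all shNT libraries, with a log2 fold change of 0.82 (SE 0.13, edgeR adjusted p = 0.00177). Hist2h2bb, an H2B gene of the same cluster, fell, at 220, 213 and 216 CPM in shARF libraries and at 254, 255 and 286 CPM in shNT libraries. Here all shARF libraries lay below all shNT libraries, with a log2 fold change of -0.29 (SE 0.05, edgeR adjusted p = 0.00206). None of its 50-base words recurred in another histone gene of the set, and summed with Gm42743, a predicted gene that overlaps it on the same strand, its log2 fold change was -0.28 (edgeR adjusted p = 0.00189).

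In the Hist1 cluster, 1 H2B gene rose and 2 fell. Hist1h2bf was at 106, 98.7 and 99.5 CPM in shARF libraries and at 87.2, 87.4 and 97.2 CPM in shNT libraries (log2 fold change 0.17, SE 0.05, edgeR adjusted p = 0.0372). The groups lay apart by a narrow margin and the call was lost in 8 of 14 alternatives, with an adjusted p of up to 0.245, among them the settings without any 1 of the shARF libraries and without shNT replicate 1 or 2. Hist1h2bj was at 143, 138 and 133 CPM in shARF libraries and at 149, 152 and 171 CPM in shNT libraries (log2 fold change -0.19, SE 0.06, edgeR adjusted p = 0.0288). Its call was lost without shARF replicate 2 or without shARF replicate 3, with an adjusted p of up to 0.0963. Hist1h2br was at 85.5, 121 and 116 CPM in shARF libraries and at 134, 147 and 157 CPM in shNT libraries (log2 fold change -0.44, SE 0.13, edgeR adjusted p = 0.0254). shARF replicate 1 was the low library, and the call was lost without shNT replicate 2 or without shNT replicate 3, with an adjusted p of up to 0.0767.

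Hist1h2br has a near copy, Hist1h2bq, with 97.3% of the words of Hist1h2bq also in Hist1h2br. Hist1h2bq was at 115, 109 and 106 CPM in shARF libraries and at 98.9, 104 and 113 CPM in shNT libraries, so the low value of shARF replicate 1 for Hist1h2br stood beside the highest value of its group for the copy. The sum of the copies was 200, 229 and 223 CPM in shARF libraries and 233, 251 and 270 CPM in shNT libraries, without overlap (log2 fold change -0.21, SE 0.07, edgeR adjusted p = 0.0347). Among abundant H2B genes, Hist1h2bc was at 215, 207 and 201 CPM in shARF libraries and at 184, 185 and 207 CPM in shNT libraries, and Hist1h2bg was at 209, 198 and 204 CPM in shARF libraries and at 183, 188 and 205 CPM in shNT libraries. Both overlapped between groups through shNT replicate 3, with log2 fold changes of 0.11 and 0.08. Without that library both were called higher, with log2 fold changes of 0.17 for Hist1h2bc and 0.13 for Hist1h2bg (edgeR adjusted p of 0.00812 and 0.0179). Hist3h2ba was near 1 CPM, at 0.893, 0.798 and 0.761 CPM in shARF libraries and at 1.06, 1.09 and 0.85 CPM in shNT libraries (log2 fold change -0.29, SE 0.18, edgeR adjusted p = 0.201). Hist1h2ba, an H2B gene of the testis, was at 10.7 to 11.1 CPM in shARF libraries and at 11.3 to 13.8 CPM in shNT libraries and did not pass the test (edgeR adjusted p = 0.194).

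H3 and H4 form the tetramer at the centre of the nucleosome, and none of their 25 genes was called higher with all 6 libraries. Of the 12 H3 genes, 11 had a negative log2 fold change, and without shNT replicate 3 the number was 5. The test called 2 lower, both of the Hist2 cluster. Hist2h3b was at 209, 202 and 200 CPM in shARF libraries and at 250, 256 and 295 CPM in shNT libraries (log2 fold change -0.39, SE 0.06, edgeR adjusted p = 0.00168). Hist2h3c2 was at 203, 200 and 196 CPM in shARF libraries and at 241, 241 and 268 CPM in shNT libraries (log2 fold change -0.32, SE 0.05, edgeR adjusted p = 0.000916). All shARF libraries lay below all shNT libraries for both. Of the 50-base words of Hist2h3b, 79.7% are in Hist2h3c2, so reads may have been shared between them and their values are not independent. Of the words of Hist2h3c2, 63.5% are in Hist2h3c1, whose counts are uncertain and which was at 8.77 CPM in shNT replicate 1. The setting that summed near copies left Hist2h3c2 apart from Hist2h3c1.

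All 9 H3 genes of the Hist1 cluster had negative log2 fold changes, from -0.19 to -0.04, and none passed the test. Hist1h3f was at 200, 189 and 186 CPM in shARF libraries and at 202, 208 and 249 CPM in shNT libraries (log2 fold change -0.19, SE 0.08, edgeR adjusted p = 0.0754). Hist1h3e was at 169, 164 and 159 CPM in shARF libraries and at 174, 177 and 208 CPM in shNT libraries (log2 fold change -0.18, SE 0.07, edgeR adjusted p = 0.0602). The groups of these 2 genes lay apart, with shNT replicate 3 far above the rest. Without shNT replicate 1 both were called lower, with log2 fold changes of -0.26 for Hist1h3f and -0.23 for Hist1h3e (edgeR adjusted p of 0.0328 for each). Hist1h3b, the Hist1 gene of this type with the highest CPM, was at 230, 221 and 220 CPM in shARF libraries and at 219, 222 and 262 CPM in shNT libraries, with overlap (log2 fold change -0.07).

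Of the 13 H4 genes, 11 had a negative log2 fold change, the median was -0.14, and 3 were called lower. Without shNT replicate 3, 8 were negative and the median was -0.07. Hist4h4 was at 93.1, 87 and 80.3 CPM in shARF libraries and at 103, 98.5 and 120 CPM in shNT libraries (log2 fold change -0.30, SE 0.09, edgeR adjusted p = 0.0213). None of its 50-base words recurred in another histone gene of the set. Its call was lost without shARF replicate 2 or without shARF replicate 3, with an adjusted p of up to 0.0706. Hist1h4c was at 171, 172 and 180 CPM in shARF libraries and at 189, 204 and 237 CPM in shNT libraries (log2 fold change -0.27, SE 0.08, edgeR adjusted p = 0.026). Its call was lost without shARF replicate 1 or without shARF replicate 2, with an adjusted p of up to 0.0794. Hist1h4d, the H4 gene with the highest CPM, was at 239, 256 and 261 CPM in shARF libraries and at 264, 283 and 307 CPM in shNT libraries (log2 fold change -0.18, SE 0.06, edgeR adjusted p = 0.0399). That call was lost in 6 of 14 alternatives, with an adjusted p of up to 0.126, among them the settings without any 1 of the shARF libraries and without shNT replicate 2 or 3. For these 3 genes the groups did not overlap.

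Hist1h4h was at 164, 166 and 173 CPM in shARF libraries and at 174, 181 and 211 CPM in shNT libraries. Its groups lay apart by a narrow margin and it missed the threshold (log2 fold change -0.17, edgeR adjusted p = 0.0848). Without shNT replicate 1 it was called lower (log2 fold change -0.23, edgeR adjusted p = 0.0284). Hist2h4, of the Hist2 cluster, was at 81.9, 79.9 and 71.1 CPM in shARF libraries and at 88.9, 79.4 and 91 CPM in shNT libraries (log2 fold change -0.15, edgeR adjusted p = 0.113), and was called lower without shNT replicate 2 (log2 fold change -0.21, edgeR adjusted p = 0.0457). The 2 H4 genes with a positive sign were the near copies Hist1h4m and Hist1h4n, with log2 fold changes of 0.04 and 0.02, and neither passed the test. Without shNT replicate 3 both were called higher, with log2 fold changes of 0.13 for Hist1h4m and 0.12 for Hist1h4n (edgeR adjusted p of 0.0429 and 0.0419).

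Ratios between histone types within a library do not depend on the scaling of libraries, and they were compared for the Hist1 cluster as a description without a test. Summed H2A over summed H1 was 1.07, 1.06 and 1.05 in shARF libraries and 1.05, 1.06 and 1.05 in shNT libraries, with overlap. Summed H3 over H2A was 1.04, 1.04 and 1.04 in shARF libraries and 1.17, 1.15 and 1.25 in shNT libraries. Summed H4 over H2A was 1.13, 1.18 and 1.23 in shARF libraries and 1.33, 1.35 and 1.43 in shNT libraries. Summed H2B over H2A was 1.35, 1.38 and 1.39 in shARF libraries and 1.48, 1.48 and 1.49 in shNT libraries. In these last 3 ratios every shARF library lay below every shNT library, including shNT replicates 1 and 2. Summed H4 over H3 was 1.09, 1.13 and 1.18 in shARF libraries and 1.14, 1.17 and 1.14 in shNT libraries, with overlap. The level of such a ratio also reflects transcript length, so only its difference between libraries is read here.

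**Figure D4:**
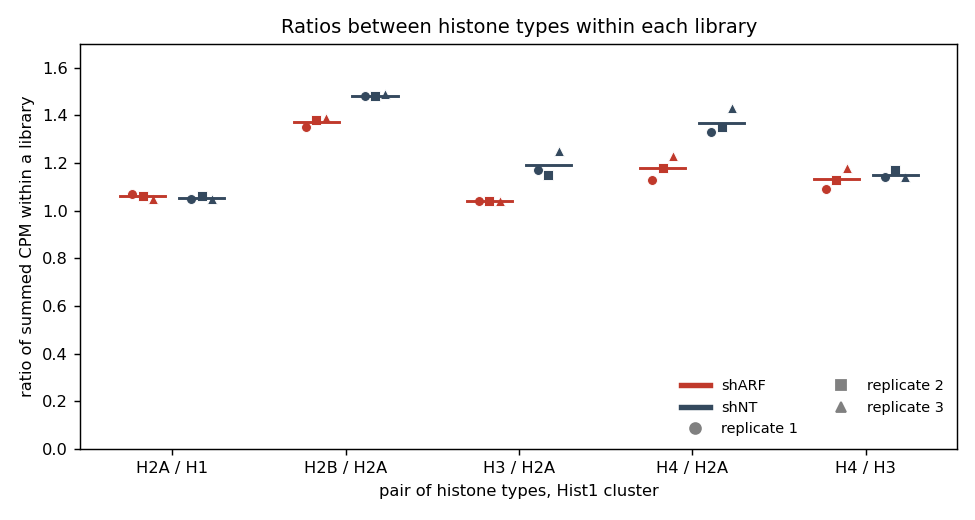
Ratio of summed CPM between histone types of the Hist1 cluster within each library, shARF left of shNT, with 1 point per library and the group mean as a bar. H2A / H1 and H4 / H3 overlap between groups, while H2B / H2A, H3 / H2A and H4 / H2A are lower in all shARF libraries, for H3 / H2A 1.04 against 1.15 to 1.25.

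By cluster, the 10 Hist2 genes included 1 called higher and 4 called lower, and the 53 tested Hist1 genes 5 called higher and 4 lower, where the shares over all genes were 28.8% higher and 27.7% lower. All 10 Hist2 genes summed to 1497, 1581 and 1439 CPM in shARF libraries and 1468, 1654 and 1717 CPM in shNT libraries. With all of them the groups overlapped (log2 ratio -0.10). Without Hist2h2aa1 and Hist2h3c1, whose counts are uncertain, the Hist2 genes summed to 1094, 1062 and 1050 CPM in shARF libraries and 1192, 1193 and 1339 CPM in shNT libraries, without overlap (log2 ratio -0.22). Of the genes kept in that sum, Hist2h2aa2 and Hist2h3c2 share sequence with those left out. The Hist1 genes summed to 8051, 7840 and 7801 CPM in shARF libraries and 7492, 7716 and 8686 CPM in shNT libraries, with overlap (log2 ratio -0.01).

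The other genes near the clusters were looked at after the folds of the histone genes were known. Those near Hist2 include predicted genes that overlap histone genes, such as Gm20634, which overlaps Hist2h2aa1 and Hist2h3c1 and was called lower. Those near Hist4h4 include the variant histone H2afj, also called lower. The medians given for the other genes of a chromosome include the genes within 1 Mb of the cluster. Within 1 Mb of the Hist2 cluster (GRCm38 chr3:96219865-96270132), 81 other genes were tested, of which 10 were called higher and 28 lower. Their median log2 fold change was -0.23, against -0.03 for the other genes of chromosome 3. Within 1 Mb of the Hist1 cluster (chr13:21715763-23934851), 39 other genes had a median of 0.12, against 0.03 for the other genes of chromosome 13, with 11 called higher and 5 lower. Within 1 Mb of the Hist3 genes (chr11:58948920-58956830), 38 other genes had a median of -0.11, against -0.08 for the other genes of chromosome 11, with 6 called higher and 12 lower. Within 1 Mb of Hist4h4 (chr6:136801553-136804415), 11 other genes had a median of -0.39, against -0.08 for the other genes of chromosome 6, with 3 called higher and 5 lower. The part of position in the folds of the histone genes was not tested.

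Hist2h2aa1, an H2A gene, and Hist2h3c1, an H3 gene, lie side by side in a duplicated stretch of the Hist2 cluster and had the widest spread of the set. Hist2h2aa1 was at 119, 238 and 113 CPM in shARF libraries and at 267, 124 and 0.389 CPM in shNT libraries. Hist2h3c1 was at 284, 281 and 276 CPM in shARF libraries and at 8.77, 337 and 378 CPM in shNT libraries. Gm20634, a predicted gene that overlaps both on the same strand, had 2, 74 and 2 counts in shARF libraries and 273, 3 and 12049 counts in shNT libraries. In shNT replicate 3 the 12049 counts of Gm20634 stood beside 16 counts of Hist2h2aa1. All 50-base words of Hist2h2aa2 are also in Hist2h2aa1, so reads of that length from Hist2h2aa2 cannot be told from those of Hist2h2aa1. Neither uncertain gene passed the test, with log2 fold changes of 0.26 (SE 1.28) for Hist2h2aa1 and 0.22 (SE 1.00) for Hist2h3c1. Without shNT replicate 1 the log2 fold change of Hist2h3c1 was -0.36 (edgeR adjusted p = 0.00158).

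Summed to 1 feature, Hist2h2aa1, Hist2h2aa2, Hist2h3c1 and Gm20634 were at 653, 762 and 629 CPM in shARF libraries and at 523, 702 and 938 CPM in shNT libraries. The sum still varied within shNT by more than it differed between groups (log2 fold change -0.08, SE 0.20, edgeR adjusted p = 0.756). Without Hist2h3c1 the H3 genes summed to 1943, 1869 and 1842 CPM in shARF libraries and 1966, 1999 and 2339 CPM in shNT libraries, and the groups no longer overlapped (log2 ratio -0.16). Without Hist2h2aa1 the H2A genes summed to 1898, 1822 and 1801 CPM in shARF libraries and 1661, 1700 and 1860 CPM in shNT libraries (log2 ratio 0.08).

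**Figure D5:**
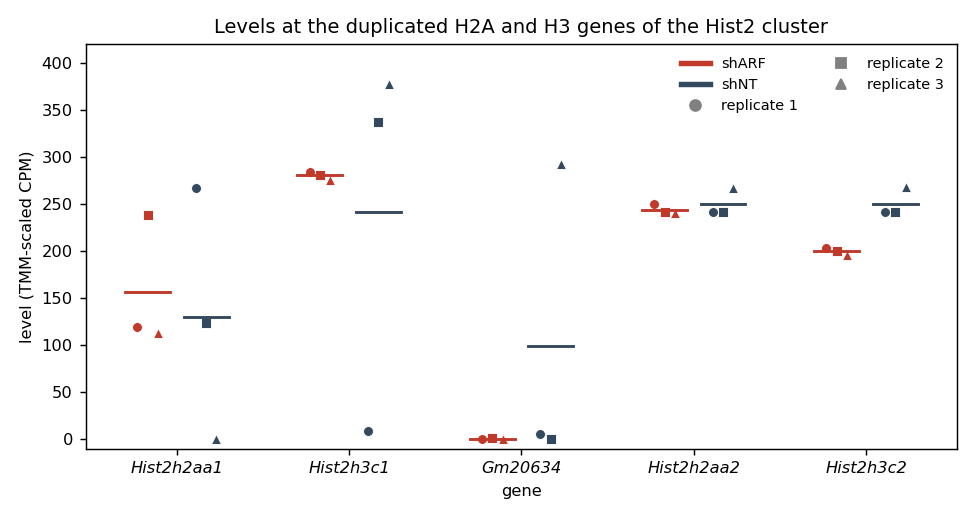
Level in TMM-scaled CPM of 5 genes of the Hist2 cluster, 1 point per library, shARF left of shNT, with the group mean as a bar. Among shNT libraries Hist2h2aa1 runs between 0.389 and 267 CPM and Hist2h3c1 between 8.77 and 378 CPM, while Hist2h2aa2 and Hist2h3c2 stay within 196 to 268 CPM in all libraries.

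Shared sequence limits what the value of a single histone gene stands for. Of the 67 genes, 30 have at least 50% of their 50-base words in another histone gene of the set. The median share of such words was 73.0% for H2A, 42.1% for H2B, 57.2% for H3, 39.5% for H4 and 1.1% for H1. The 30 genes with at least 50% shared words included 3 called higher and 4 lower, and the 36 tested genes with less included 3 higher and 5 lower. The sources used here do not state how reads that fit several genes were counted. Genes annotated as miRNAs on the opposite strand of H2A genes, 17 in all, held 0 to 34 counts per library.

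The promoters of the called genes show the letters by which histone types differ at their starts. RefSeq promoter entries on GRCm38.p6, from 250 bases before to 50 after the start, were matched for 62 of the 67 genes, and Hist1h2bc, Hist1h3a, Hist1h3f, Hist2h2be and Hist2h4 had no entry. The 150 bases before the start are printed 5′ to 3′ on the strand of the gene for 5 called genes, chosen to show H1, H2A, H2B and H4 genes that rose or fell. Capitals mark CCAAT, ATTTGCAT and GGTCCG on either strand. TATAAA and TTTGGCGC, the other motifs searched, are in none of these 5 promoters. For Hist1h2ao the printed stretch ends at 21810366 and the GENCODE gene starts at 21810465. For Hist2h2bb these positions are 96269699 and 96269752. The bases between them are not shown.
Hist1h1c, H1, called higher, chr13:23738657-23738806, plus strand: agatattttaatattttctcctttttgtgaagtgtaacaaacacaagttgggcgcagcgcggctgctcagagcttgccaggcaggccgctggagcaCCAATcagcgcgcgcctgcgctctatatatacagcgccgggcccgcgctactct
Hist1h2ao, H2A, called higher, chr13:21810217-21810366, plus strand: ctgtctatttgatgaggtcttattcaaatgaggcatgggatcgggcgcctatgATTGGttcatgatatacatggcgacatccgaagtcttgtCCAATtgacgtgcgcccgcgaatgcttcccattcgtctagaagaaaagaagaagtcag
Hist2h2bb, H2B, called lower, chr3:96269550-96269699, plus strand: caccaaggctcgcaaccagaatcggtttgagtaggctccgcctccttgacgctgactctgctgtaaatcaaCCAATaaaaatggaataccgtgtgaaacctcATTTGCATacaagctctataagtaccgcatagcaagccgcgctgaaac
Hist1h4c, H4, called lower, chr13:23698459-23698608, minus strand: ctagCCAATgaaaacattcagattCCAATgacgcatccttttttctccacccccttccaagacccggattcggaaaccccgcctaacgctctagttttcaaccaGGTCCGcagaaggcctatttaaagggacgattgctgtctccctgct
Hist4h4, H4, called lower, chr6:136804432-136804581, minus strand: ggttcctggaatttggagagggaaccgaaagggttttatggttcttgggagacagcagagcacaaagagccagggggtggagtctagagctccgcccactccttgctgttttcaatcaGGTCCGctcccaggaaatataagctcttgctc

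The 5 motifs were searched on both strands of the whole 300-base window. CCAAT, the sequence that NF-Y binds in many promoters, was found in all matched H1, H2A, H2B and H3 promoters and in 3 of 12 H4 promoters. That is 85.5% of the histone promoters against 37.4% of all 32851 promoters. ATTTGCAT, the octamer known to bind Oct1 (Pou2f1) in H2B promoters, was found in 7 of 18 H2A and 7 of 16 H2B promoters and in no other type, 22.6% of the histone promoters against 1.74% of all. Windows of neighbouring H2A and H2B genes on opposite strands can overlap, and some octamer and CCAAT sites were counted for both genes. These counts are thus of promoters and not of separate sites. GGTCCG, part of the H4 element that Hinfp is known to bind, was found in 11 of 12 H4 promoters, 1 of 16 H2B and 1 of 10 H3, in all 13 of 62 histone promoters, against 8.25% of all promoters. TATAAA was found in 56.5% of the histone promoters against 13.6% of all. TTTGGCGC, a sequence of the E2F type, was found in 0 of the 62 against 0.514% of all, which says only that these letters are not in this window. Matches of 2 different motifs overlapped in 1 histone promoter.

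Compared per length of annotated transcript, as the mean CPM per kb over the 6 libraries, the highest level was that of Hist2h2bb at 632, followed by Hist1h4k at 563 and Hist2h3b at 482. Several of these transcripts are annotated no further than the coding region, which raises the level per kb. Among H1 genes the order was Hist1h1b at 301 CPM per kb, Hist1h1a at 230, Hist1h1c at 202, Hist1h1e at 140 and Hist1h1d at 43.4, the last with an annotated transcript of 7425 bases. The lowest levels were those of the testis genes Hist1h1t, at 0.533 CPM per kb, and Hist1h2aa, at 0.286. In CPM, 60 of the 67 genes had a mean above 50.

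Replacement histones are as a rule made throughout the cell cycle from polyadenylated messages, which was not checked for each variant gene listed here. Of 11 variant genes tested, 4 were called higher and 3 lower, against 28.8% and 27.7% of all genes. The median log2 fold change was 0.03. H1fx, not called, had 1865, 0 and 0 counts in shARF libraries and 0, 2344 and 1762 counts in shNT libraries. H1f0, the linker histone H1.0 of resting and differentiated cells, was at 344, 339 and 344 CPM in shARF libraries and at 208, 220 and 222 CPM in shNT libraries (log2 fold change 0.66, SE 0.03, edgeR adjusted p = 3.92e-06). H3f3b, which encodes H3.3, was at 386, 393 and 393 CPM in shARF libraries and at 306, 306 and 310 CPM in shNT libraries (log2 fold change 0.35, SE 0.02, edgeR adjusted p = 7.98e-06). H2afj, an H2A variant, was at 28.8, 28.5 and 29.3 CPM in shARF libraries and at 43.1, 42 and 45.5 CPM in shNT libraries (log2 fold change -0.59, SE 0.04, edgeR adjusted p = 4.01e-05). For these 3 genes the groups did not overlap.

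The factors that transcribe and process histone messages were called in both directions, 8 of 26 higher and 8 lower, against 28.8% and 27.7% of all genes, and the median log2 fold change was -0.03. Slbp, the protein that binds the stem-loops printed above, was at 43.3, 42.9 and 43.9 CPM in shARF libraries and at 44.4, 44.4 and 43.4 CPM in shNT libraries and did not pass the test (log2 fold change -0.02, edgeR adjusted p = 0.591). Ccne2 encodes cyclin E2, and cyclin E kinase acts on the histone transcription factor Npat. Ccne2 was at 51, 51.5 and 58 CPM in shARF libraries and at 29, 25.8 and 27.5 CPM in shNT libraries (log2 fold change 0.96, SE 0.07, edgeR adjusted p = 3.42e-05). Cpsf2, a subunit of the complex that cleaves histone messages, was at 133, 135 and 132 CPM in shARF libraries and at 101, 102 and 97.6 CPM in shNT libraries (log2 fold change 0.41, SE 0.03, edgeR adjusted p = 2.58e-05). Ncbp1, the large subunit of the nuclear cap-binding complex, was at 146, 140 and 146 CPM in shARF libraries and at 114, 114 and 113 CPM in shNT libraries (log2 fold change 0.34, SE 0.03, edgeR adjusted p = 4.81e-05). In each of these 3 genes all shARF libraries lay above all shNT libraries.

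Histone chaperones carry new histones to DNA. Of 26 tested, 11 were called higher and 6 lower, against 28.8% and 27.7% of all genes, and the median log2 fold change was 0.03. Asf1b, a chaperone of H3 and H4, fell, at 28.5, 28.7 and 29 CPM in shARF libraries and at 46, 47 and 46 CPM in shNT libraries (log2 fold change -0.69, SE 0.04, edgeR adjusted p = 7.2e-06). Cabin1, a subunit of the HIRA complex that deposits H3.3, rose, with a log2 fold change of 0.31 (SE 0.02, edgeR adjusted p = 3.49e-05). Npm1, a nucleolar histone chaperone known to bind ARF, was at 706, 723 and 723 CPM in shARF libraries and at 619, 602 and 617 CPM in shNT libraries (log2 fold change 0.23, SE 0.02, edgeR adjusted p = 8.86e-05).

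Of 42 genes of DNA synthesis and S phase entry, 12 were called higher and 19 lower, against 28.8% and 27.7% of all genes, and the median log2 fold change was -0.02. Rrm2, a subunit of ribonucleotide reductase, was at 157, 152 and 149 CPM in shARF libraries and at 107, 104 and 106 CPM in shNT libraries (log2 fold change 0.53, SE 0.03, edgeR adjusted p = 1.04e-05). Gins4, a subunit of the replicative helicase, was at 44.2, 42 and 41.8 CPM in shARF libraries and at 63.1, 67.5 and 63.8 CPM in shNT libraries (log2 fold change -0.60, SE 0.04, edgeR adjusted p = 3.56e-05). The list as a whole summed to 3867 to 3921 CPM in shARF libraries and 3902 to 3949 CPM in shNT libraries, which overlap.

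Other RNAs without a poly(A) tail and markers of other cell types also differed between the groups, and their part in the histone results was not tested. Structural RNAs took 3.27 to 3.35% of counts in shARF libraries and 2.67 to 2.92% in shNT libraries. The 11 nonpolyadenylated RNAs listed summed to 28107, 27295 and 28067 CPM in shARF libraries and 20307, 20998 and 22679 CPM in shNT libraries, with 2 of 10 tested called higher and 2 lower. Most of the sum was Rn7s1 and Rn7s2, the RNA of the signal recognition particle, with log2 fold changes of 0.43 each. Rn7s1 was at 13710, 13269 and 13674 CPM in shARF libraries and at 9623, 9966 and 10669 CPM in shNT libraries (edgeR adjusted p = 9.37e-05). Terc, the telomerase RNA, fell, at 7.79, 7.3 and 6.91 CPM in shARF libraries and at 14.7, 15.5 and 17.6 CPM in shNT libraries (log2 fold change -1.12, edgeR adjusted p = 5.26e-05), and Scarna2 was the other lower call. The neural markers summed to 93.6 to 102 CPM in shARF libraries and 70.4 to 74.0 CPM in shNT libraries, with both tested genes higher and with Sox2, Rbfox3 and Sox10 at 0. The epithelial markers summed to 32.7 to 34.0 CPM in shARF libraries and 36.8 to 39.7 CPM in shNT libraries, with 2 of 5 tested higher and 1 lower. Among them Krt18, a keratin, was at 0 to 0.228 CPM in shARF libraries and 12.1 to 13.9 CPM in shNT libraries (log2 fold change -6.38), and Cdh1, E-cadherin, at 4.76 to 4.84 CPM in shARF libraries and 1.93 to 2.28 CPM in shNT libraries (log2 fold change 1.17). The blood markers summed to 1.5 to 1.99 CPM in shARF libraries and 6.73 to 7.54 CPM in shNT libraries, with both tested genes lower and with Adgre1 and Cd3e at 0. The endothelial markers summed to 2.99 to 3.8 CPM in shARF libraries and 3.12 to 3.43 CPM in shNT libraries, with 1 of 3 tested higher, 2 lower and Cdh5 at 0. Among them Kdr, a receptor of vascular endothelial growth factor, was at 2.81 to 3.53 CPM in shARF libraries and 0.246 to 0.316 CPM in shNT libraries (log2 fold change 3.47), and Tek, the angiopoietin receptor, at 0 to 0.112 CPM in shARF libraries and 2.05 to 2.31 CPM in shNT libraries (log2 fold change -4.94). The skeletal muscle markers summed to 0.268 to 0.559 CPM in shARF libraries and 0.0821 to 0.13 CPM in shNT libraries, with the 1 tested gene higher and with Myod1, Myog and Ckm at 0.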

How the data were processed

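The authors deposited whole-number counts per gene for each library in 1 table of 54752 rows, keyed by Ensembl IDs of the mouse. Tools listed in the submitters' processing notes, without roles, are DESeq2 1.34.0, StringTie 1.3.2, Picard 2.13.2, SAMtools 0.1.19, HISAT2 2.1.0 and Trim Galore 0.4.1, and the build is GRCm38. Which tool counted, with which strand setting and which handling of reads that fit several genes, is not given in the sources. Libraries were made from total RNA by a stranded kit after removal of ribosomal RNA, per the labels' protocols. A further 6 columns match no sample of the series and were not used. Columns were matched to samples on group and replicate number, since the index number in the shARF columns differs from that in the titles.

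GENCODE M21 gave names to 54723 rows; the 29 unmatched rows held 0.00227 to 0.00384% of counts. The main test was edgeR 4.0.16 (R 4.3.3), quasi-likelihood, two-sided, with group as the sole term, TMM, filterByExpr, p-values adjusted by Benjamini-Hochberg over 17128 genes, and calls at 0.05. Standard errors were derived from the test, as the absolute log2 fold change over the square root of its F statistic. The fit was tested on simulated counts with known folds. The alternatives were DESeq2 1.42.0, other scalings and filters, structural RNAs left out, a replicate block, and each library left out in turn. Summing near copies, a minimum fold of 1.2 and the H3 sum without Hist2h3c1 were added after seeing the data. Near copies were summed where at least 90% of the words of 1 gene were in the other, which left Hist1h4m and Hist1h4n apart. That setting also summed histone genes with any gene overlapping them on the same strand, such as Hist3h2a with Trim17. Shared words are the 50-base stretches of annotated transcripts.

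Named genes were all called members, the 3 of each type with the highest CPM, every tested member outside Hist1, the members with the highest and lowest fold, the 3 of each other list with the smallest p, and Cdkn2a. For the other lists the rule was applied to the variant histones, histone mRNA factors, chaperones and S phase genes, and not to the markers and nonpolyadenylated RNAs. Hist1h1a, Hist1h1b, Hist1h2aa, Hist1h2ba, Hist1h2bq, Hist1h3e, Hist1h3f, Hist1h4k, Hist1h4m, Hist1h4n, H1fx, Slbp and the genes named among the markers and nonpolyadenylated RNAs were added after their values were seen. The members and lists were chosen with earlier results of these data known. The symbols Symplk, Zcchc6 and Zcchc11 of the list of histone mRNA factors matched no gene and were left out. Most members had high counts and so little counting error; the exceptions are Hist1h1t, Hist2h2be, Hist3h2ba, Hist1h2ba, Hist2h2ab and Hist1h2aa.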

Additional observations from a re-analysis of the deposited data

How the results depend on the processing

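With library sizes alone, 3 histone genes were called higher and 22 lower, against 6 and 9 with TMM; the log2 ratios of summed H1, H2A, H2B, H3 and H4 were 0.01, 0.00, -0.13, -0.20 and -0.21, and the calls higher were 5 among histone mRNA factors and 6 among S phase genes, against 8 and 12. With a fold of at least 1.2 required, 3 were called higher. Over the 6 settings that leave out 1 library each, the calls higher ran from 5 to 22, the 22 without shNT replicate 3, and the calls lower from 4 to 15, with 4 without shARF replicate 2, 5 without shARF replicate 3 and 15 without shNT replicate 1. The log2 fold change of Hist2h3c1 ran from -0.36 to 0.68 over these settings, and turned negative without shNT replicate 1, the library in which it had 404 counts. The log2 ratio of summed H3 without Hist2h3c1 ran from -0.20 to -0.07. RLE scaling, DESeq2, both other filters, structural RNAs left out and near copies summed kept both counts of histone calls within 1.5 times of those with TMM. Over all genes replicate numbers did not pair the libraries: deviations of libraries with the same number correlated at -0.138, -0.0503 and -0.0433. Over the tested histone genes, with Hist2h2aa1 and Hist2h3c1 among them, those correlations were -0.347, 0.665 and 0.635. Libraries with different numbers correlated at -0.844 to 0.589 over the same genes, so these values do not decide whether libraries were paired. With a replicate block 5 histone genes were called higher and 10 lower, and Hist1h2bf, Hist1h2bj and Hist4h4 were not called. Among the other lists, leaving out 1 library moved no count by more than 1.5 times. Of the values of single named genes under the alternatives, 511 kept their direction and side of the threshold, 28 lost a call, 15 gained one, 8 turned sign with no call on either side and 1, that of Hist2h3c1, reversed. The low counts of Hist1h1t, Hist3h2ba and Hist1h2aa limit what can be said of their levels.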

Other observations

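The histone pseudogene Hist1h2al (GRCm38 chr13:51202727-51203065, minus strand) lies outside the set because it is annotated as a processed pseudogene, and it was looked at after its values were seen. It was at 51.6, 50.7 and 48.4 CPM in shARF libraries and at 116, 118 and 135 CPM in shNT libraries, without overlap. Its log2 fold change was -1.29 (SE 0.07, edgeR adjusted p = 6.87e-06), larger in size than that of any histone gene of the set called lower, and the call held in all 14 alternatives. Of the 50-base words of Hist1h2al, 67.6% are in a histone gene of the set. Hist1h2aj, another histone pseudogene, with 93.1% of its words in a histone gene of the set, was at 75.6, 71.9 and 72.3 CPM in shARF libraries and at 69.4, 68.6 and 75.5 CPM in shNT libraries and did not pass the test (edgeR adjusted p = 0.488).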
